A study of Drosophila melanogaster with 15 samples.

Results

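The 9 genes *bw*, *st*, *cn*, *v*, *se*, *Hn*, *ry*, *car* and *cd*, which make or move the pigments of the fly eye, were taken by their gene symbols from the counts of genes, exons and splice junctions. They are 9 of the 13259 genes in the gene counts, and *white* (*w*), their best known partner, is given only where a value of a member is set beside it. RNA-Seq was performed on the heads of *GMR > prp4* RNAi, *GMR > prp8* RNAi and *GMR/+* control flies of *Drosophila melanogaster*, with 5 libraries of each genotype and 15 in all. *GMR-Gal4* drives expression in the eye, and both knockdowns carried it with an RNAi transgene of the GD type, while the controls carried it alone. Flies were 3 to 5 days old, had spent at least 3 cycles in 12 h of light and 12 h of dark, and were frozen at ZT12 by the labels, that is 12 h after lights on, and the paper names ZT12 in one place and ZT8 in another for the RNA-Seq samples. *prp4* and *prp8* encode proteins of the U4/U6.U5 tri-snRNP, a subunit of the spliceosome, and the comparisons ask which RNAs change when either is reduced in the eye. Each knockdown is 1 RNAi line, so an effect of the line cannot be told apart from that of the knockdown.

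The fly eye holds red drosopterins, which are pteridines made from GTP, and brown ommochromes, which are made from tryptophan. Both are stored in pigment granules, organelles related to lysosomes. Transporter subunits of the ABC family carry the precursors into the granule, with the *w* product paired to that of *bw* for pteridine precursors and to that of *st* for ommochrome precursors.

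Gene counts of single libraries summed to between 11753627 and 11979892 reads. The p-values measure the spread between these libraries. The paper calls those of *GMR > prp4* RNAi and *GMR/+* independent biological replicates, and does not describe RNA-Seq of *GMR > prp8* RNAi. CG7028, the gene that the *prp4* line targets, had a log2 fold change of -0.23 in *GMR > prp4* RNAi (adjusted p = 0.101 from edgeR), and *Prp8* one of -0.11 in *GMR > prp8* RNAi (adjusted p = 0.278), neither past the threshold of 0.05 in whole heads. The library labelled *GMR > prp8* RNAi replicate 14 stood apart from the other 4 of its group. Its *Prp8* count of 1572 was the highest of the group. That count was within the 1429 to 1617 of *GMR > prp4* RNAi and above the 1339 to 1545 of the controls. Its CG7028 count of 161 was above the 111 to 149 of *GMR > prp4* RNAi and within the 141 to 165 of the controls. For *se*, *st*, *cd* and a junction of *bw* it also lay within or next to the range of *GMR > prp4* RNAi, and results of *GMR > prp8* RNAi are therefore given with and without it. Since values of these same genes helped to pick it out, the adjusted p-values without replicate 14 are given as description only. Both knockdowns were compared with the same 5 control libraries, so those comparisons are not independent of each other. Of 16 photoreceptor markers, 4 fell and 1 rose in *GMR > prp4* RNAi, and 5 fell and 0 rose in *GMR > prp8* RNAi, or 6 and 0 without replicate 14, against 9.63%, 4.73% and 5.76% called over all genes. The summed normalized counts of the photoreceptor markers, scaled to library size as CPM, were 124289 to 140699 in *GMR > prp4* RNAi, 118448 to 133950 in *GMR > prp8* RNAi and 131693 to 139726 in the controls. Of 5 hemocyte markers, 2 of the 4 tested fell in *GMR > prp4* RNAi and 1 in *GMR > prp8* RNAi, with summed CPM of 319 to 352 in *GMR > prp4* RNAi and 322 to 383 in *GMR > prp8* RNAi, against 403 to 433 in the controls. Glia markers fell for 2 of 5 tested in *GMR > prp4* RNAi (summed CPM 3499 to 3934, against 3978 to 4553 in the controls) and for 0 of 5 in *GMR > prp8* RNAi, where the summed CPM of 3501 to 4150 also ran lower than in the controls, with some overlap. Muscle markers rose for 1 of 7 in *GMR > prp8* RNAi (summed CPM 4332 to 5405, against 4323 to 4521 in the controls), or 4 of 7 without replicate 14, and for 0 of 7 in *GMR > prp4* RNAi. Of 10 neuron, 2 lens and cone cell, 7 fat body and 5 sex-linked RNA markers tested, 0 were called in any comparison. The summed CPM of the fat body markers ran from 4673 to 21319 within *GMR > prp4* RNAi. The shares called over all genes given above hold beside each of these lists. None of the markers was at 0 in all libraries, and the part of these cell types in the results below was not tested. In RNA of whole heads, fewer cells of a type and less RNA per cell cannot be told apart.

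Levels of the 9 genes were compared per length, as CPM per kilobase of exon in the file. Those exons reach 302 bases beyond most genes at both ends, which lowers the level of a short gene more than that of a long one. For *se* the length was 1499 bases, while its annotated exons have 66, 569 and 190 bases. The order of genes with near levels therefore holds for these lengths only, *se* beside *ry* among them. In *GMR > prp4* RNAi the order was *Hn* (299 ± 38.4), *bw* (77.1 ± 7.33), *v* (29.7 ± 2.86), *se* (16.1 ± 1.52), *ry* (12.0 ± 1.75), *car* (4.28 ± 0.310), *cd* (3.32 ± 0.338), *st* (3.27 ± 0.313) and *cn* (0.0288 ± 0.0306; all SD, n = 5), and only *cd* and *st* overlapped among neighbours in that order. In *GMR > prp8* RNAi *se* (9.34 ± 2.83) came below *ry* (9.74 ± 0.813) and *cd* (4.58 ± 0.956) came above *car* (4.41 ± 0.447), and the libraries of both pairs overlapped, with and without replicate 14. In the controls *se* (22.9 ± 1.35) came above *ry* (10.5 ± 1.36) with no overlap, and only *cd* (4.34 ± 0.384) and *car* (4.06 ± 0.291) overlapped. *Hn* was the highest, *bw* the next and *v* after it in all 3 genotypes, and *cn* was the lowest.

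**Figure D1:**
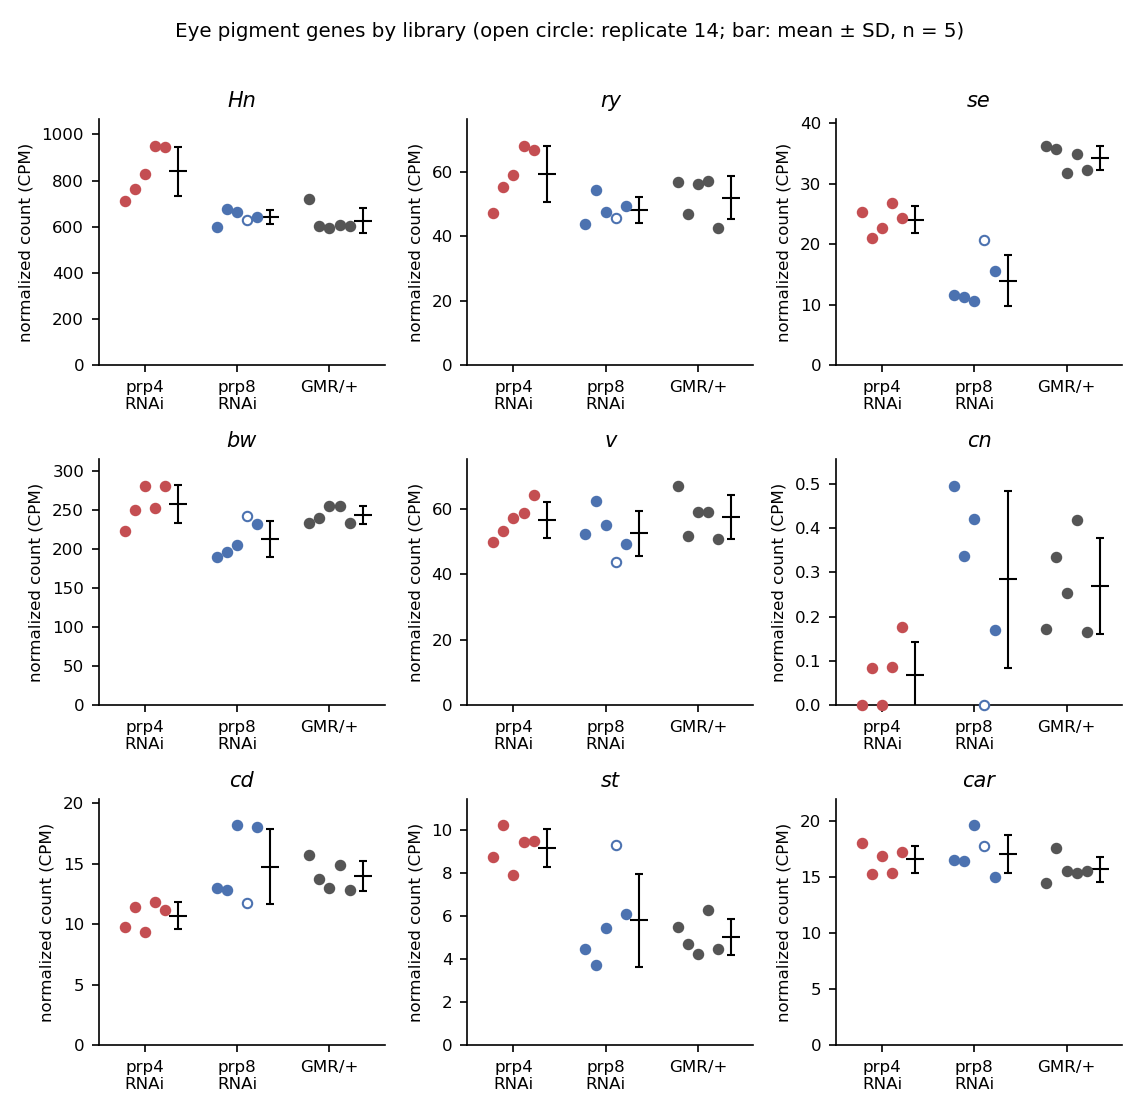
Normalized counts (CPM) of the 9 genes, with 1 point per library in *GMR > prp4* RNAi, *GMR > prp8* RNAi and *GMR/+* and the mean ± SD of 5 libraries beside each group. The *se* libraries of both knockdowns lie below all 5 controls, and the open circle, replicate 14, lies above the other 4 *GMR > prp8* RNAi libraries for *se* and *st*.

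Counts of 8 of the 9 genes passed the filter on low values and were tested. The members were chosen with earlier results of these data known, so the shares over all genes below are no test of the set. In *GMR > prp4* RNAi, 2 of the 8 rose (*st* and *Hn*), 2 fell (*se* and *cd*) and 4 did not pass the test (*bw*, *v*, *ry* and *car*), against 9.63% called of the 9012 genes tested. In *GMR > prp8* RNAi, *se* fell and the other 7 did not pass, against 4.73% of 9019 genes. Without replicate 14, *bw* fell too, and 2 of 8 were called against 5.76% of 9055 genes. *Hn*, *ry*, *v* and *car* had log2 fold changes of 0.04, -0.09, -0.07 and 0.10 without that library, none past the test. The median log2 fold change of the 8 genes was 0.08 in *GMR > prp4* RNAi (-0.00082 over all genes tested) and -0.04 in *GMR > prp8* RNAi (-0.0013 over all genes tested).

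Between the knockdowns, 2 of the 8 genes, *se* and *Hn*, were higher in *GMR > prp4* RNAi than in *GMR > prp8* RNAi, against 2.36% of 9115 genes. Without replicate 14, 4 were higher (*se*, *Hn*, *st* and *bw*) and 1 was lower (*cd*), and the background was 6.32% of 9159 genes.

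**Figure D2:**
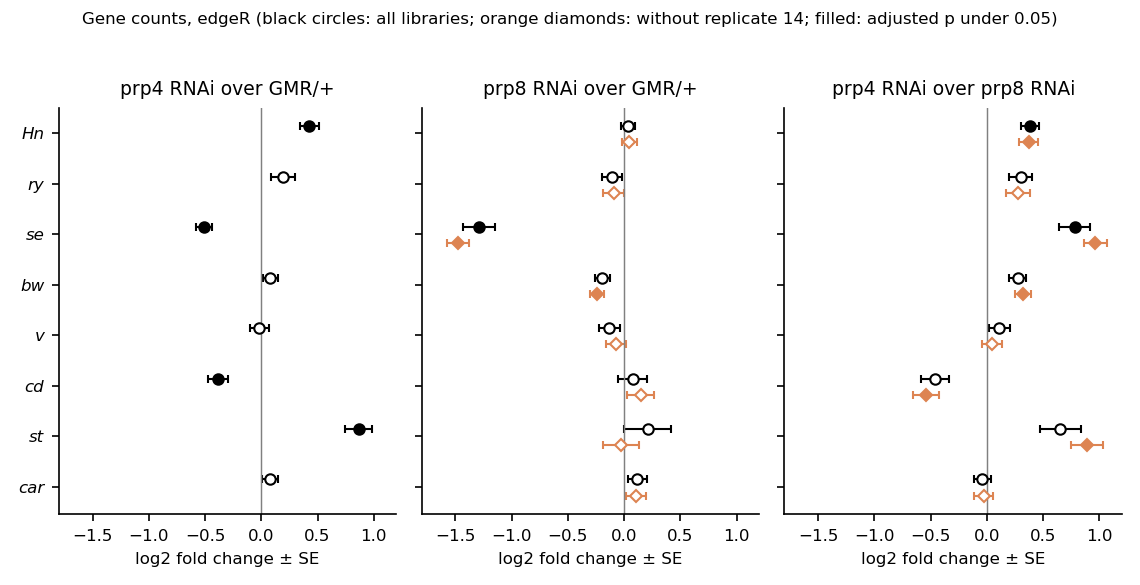
Log2 fold changes with their standard errors (edgeR) of the 8 genes tested, for *GMR > prp4* RNAi over *GMR/+*, *GMR > prp8* RNAi over *GMR/+* and *GMR > prp4* RNAi over *GMR > prp8* RNAi, with all libraries (black) and without replicate 14 (orange); filled points have an adjusted p under 0.05. *se* lies at -0.51 and -1.29 in the knockdowns, *st* at 0.86 and 0.21.

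Among the genes of pteridine synthesis, *sepia* (*se*, FBgn0086348, 3L from 8520552 to 8521489) encodes a glutathione transferase of the omega class that makes PDA, a precursor of drosopterins. It had 304, 254, 267, 313 and 277 reads in *GMR > prp4* RNAi and 141, 134, 127, 254 and 184 reads in *GMR > prp8* RNAi, against 424, 428, 378, 417 and 389 reads in the controls. All 10 knockdown libraries lay below all 5 controls, and the 254 reads of replicate 14 were the one *GMR > prp8* RNAi value to reach the *GMR > prp4* RNAi range, although after normalization these groups did not overlap. *se* had a log2 fold change of -0.51 in *GMR > prp4* RNAi (edgeR, standard error 0.071, adjusted p = 0.000455). For *GMR > prp8* RNAi the change was -1.29 (standard error 0.145, adjusted p = 0.00021), and -1.48 without replicate 14 (adjusted p = 7.45e-07). *se* was thus lower in both knockdowns and lower in *GMR > prp8* RNAi than in *GMR > prp4* RNAi, where the log2 difference of *GMR > prp4* RNAi over *GMR > prp8* RNAi was 0.78 (standard error 0.14, adjusted p = 0.00689), or 0.96 without replicate 14 (adjusted p = 5.87e-06).

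Reads across both introns of *se* showed the same order. The intron after its first exon had 41, 22, 30, 23 and 17 junction reads in *GMR > prp4* RNAi and 24, 12, 10, 24 and 15 in *GMR > prp8* RNAi, against 34, 53, 43, 48 and 34 in the controls. The next intron had 23, 10, 16, 21 and 23 in *GMR > prp4* RNAi and 18, 7, 16, 7 and 17 in *GMR > prp8* RNAi, against 43, 38, 27, 29 and 19 in the controls. Over both introns, the *GMR > prp8* RNAi libraries (19 to 42 reads) lay below the controls (53 to 91 reads), and the *GMR > prp4* RNAi libraries (32 to 64 reads) overlapped them. The neighbours *GstO3* and *GstO2*, which encode related omega class enzymes, did not pass the test in either knockdown. Their counted regions overlap that of *se* at its ends, while in the annotation the overlap is 0 bases for *GstO3* and 61 for *GstO2*. The log2 fold change of *GstO3* was 0.11 in *GMR > prp4* RNAi and 0.16 in *GMR > prp8* RNAi, and that of *GstO2* was -0.0024 in *GMR > prp4* RNAi and 0.03 in *GMR > prp8* RNAi.

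*Henna* (*Hn*, FBgn0001208, 3L from 7760453 to 7763166) encodes phenylalanine hydroxylase, which works with a pteridine cofactor. It had 8510, 9174, 9775, 11070 and 10754 reads in *GMR > prp4* RNAi and 7262, 8014, 7903, 7723 and 7581 reads in *GMR > prp8* RNAi, against 8416, 7199, 7044, 7251 and 7273 reads in the controls. The *GMR > prp4* RNAi reads were the highest, and after normalization only the control library of replicate 1 (721 CPM) reached the lowest of them (711 CPM). *Hn* had log2 fold changes of 0.42 in *GMR > prp4* RNAi (edgeR, standard error 0.084, adjusted p = 0.00616) and 0.04 in *GMR > prp8* RNAi (standard error 0.062, adjusted p = 0.791). *Hn* was higher in *GMR > prp4* RNAi than in *GMR > prp8* RNAi by 0.39 on the log2 scale (adjusted p = 0.0142), with no overlap of the libraries, and by 0.37 without replicate 14 (adjusted p = 0.0112). Without replicate 11 that difference did not pass (adjusted p = 0.0546).

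*rosy* (*ry*, FBgn0003308, 3R from 13032528 to 13038020) encodes xanthine dehydrogenase, which turns a pteridine intermediate into isoxanthopterin. It had 565, 666, 695, 793 and 761 reads in *GMR > prp4* RNAi and 529, 642, 567, 559 and 583 reads in *GMR > prp8* RNAi, against 664, 563, 667, 681 and 513 reads in the controls. The groups overlapped, and neither the log2 fold change of 0.19 in *GMR > prp4* RNAi (standard error 0.11, adjusted p = 0.305 from edgeR) nor that of -0.11 in *GMR > prp8* RNAi (standard error 0.089, adjusted p = 0.524) passed the test.

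The ommochrome route starts with *vermilion* (*v*, FBgn0003965, X from 10923972 to 10925631), the gene of tryptophan 2,3-dioxygenase. It had 598, 641, 674, 681 and 732 reads in *GMR > prp4* RNAi and 632, 736, 655, 534 and 581 reads in *GMR > prp8* RNAi, against 783, 617, 699, 703 and 609 reads in the controls. All 3 groups overlapped, with log2 fold changes of -0.02 in *GMR > prp4* RNAi (standard error 0.084, adjusted p = 0.927 from edgeR) and -0.13 in *GMR > prp8* RNAi (standard error 0.097, adjusted p = 0.49).

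*cinnabar* (*cn*, FBgn0000337, 2R from 7782797 to 7785067) encodes kynurenine 3-monooxygenase. It had 0, 1, 0, 1 and 2 reads in *GMR > prp4* RNAi and 6, 4, 5, 0 and 2 reads in *GMR > prp8* RNAi, against 2, 4, 3, 5 and 2 reads in the controls. At 3 counts or fewer in 10 of the 15 libraries and at most 6 in any, *cn* was not tested and no fold change is given. A gene on the other strand, CR45108, overlaps 1734 bases of it.

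*cardinal* (*cd*, FBgn0263986, 3R from 22694959 to 22697990) encodes a haem peroxidase that acts at the last step to xanthommatin. It had 117, 137, 110, 138 and 127 reads in *GMR > prp4* RNAi and 157, 152, 216, 144 and 213 reads in *GMR > prp8* RNAi, against 183, 164, 154, 177 and 154 reads in the controls. The *GMR > prp4* RNAi libraries all lay below the controls, while the *GMR > prp8* RNAi libraries spread to both sides of them. *cd* fell in *GMR > prp4* RNAi, with a log2 fold change of -0.39 (standard error 0.087, adjusted p = 0.0129 from edgeR). With all 15 libraries in one fit, the adjusted p was 0.0545. Its log2 fold change in *GMR > prp8* RNAi was 0.07 (standard error 0.125, adjusted p = 0.803), and 0.15 without replicate 14 (adjusted p = 0.545). Between the knockdowns *cd* was at -0.46 on the log2 scale in *GMR > prp4* RNAi over *GMR > prp8* RNAi (adjusted p = 0.0515), and at -0.54 without replicate 14 (adjusted p = 0.00793).

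Reads on the last of the 4 exons of *cd* were set apart from the rest of the gene in *GMR > prp8* RNAi. That exon, which holds the end of the coding sequence and runs in the file from 22697637 to 22698292 on 3R, had 38, 51, 46, 43 and 34 reads in *GMR > prp4* RNAi and 26, 32, 30, 42 and 18 reads in *GMR > prp8* RNAi, against 53, 54, 55, 49 and 52 reads in the controls. Exon 2, the longest, had 88, 90, 95, 110 and 91 reads in *GMR > prp4* RNAi and 135, 135, 201, 98 and 192 reads in *GMR > prp8* RNAi, against 129, 141, 106, 155 and 121 reads in the controls. In 4 of the 5 *GMR > prp8* RNAi libraries the last exon was low while exon 2 was not, and the exception was replicate 14, where both lay near the *GMR > prp4* RNAi values.

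The reads of the last exon divided by those of the exon before it were 1.26 ± 0.125 in *GMR > prp4* RNAi and 0.622 ± 0.252 in *GMR > prp8* RNAi, against 1.14 ± 0.294 in the controls (SD, n = 5 each). Without replicate 14, whose ratio was 1.02, the *GMR > prp8* RNAi mean was 0.522 ± 0.132 (SD, n = 4), and its highest value, 0.681, lay below the lowest control, 0.845. This ratio was chosen after its values were seen and was not tested by itself. In the test of exon use, which compares each exon with the others of its gene, the last exon had a log2 change of -0.83 in *GMR > prp8* RNAi and the gene did not pass (adjusted p = 0.174 from edgeR). Without replicate 14 the change was -1.06 and the gene passed (adjusted p = 0.00253). Between the knockdowns the log2 change of the exon in *GMR > prp4* RNAi over *GMR > prp8* RNAi was 0.95 (gene adjusted p = 0.0557), or 1.19 without replicate 14 (gene adjusted p = 0.00025).

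The junction into the last exon had 9, 12, 7, 10 and 4 reads in *GMR > prp4* RNAi and 9, 7, 7, 13 and 7 reads in *GMR > prp8* RNAi, against 15, 13, 14, 16 and 10 reads in the controls. The junction before it had 22, 18, 26, 18 and 17 reads in *GMR > prp4* RNAi and 41, 30, 38, 16 and 30 reads in *GMR > prp8* RNAi, against 28, 30, 16, 25 and 24 reads in the controls. Junction use of *cd* did not pass the test with these few reads. In the file the gene region of *cd* overlaps by 276 bases that of *Cyp6d4*, the next gene on the same strand. *Cyp6d4* fell in *GMR > prp8* RNAi as well, with a log2 fold change of -0.40 (adjusted p = 0.0495), or -0.46 without replicate 14 (adjusted p = 0.0284), and its part in the count of the last exon was not tested.

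**Figure D3:**
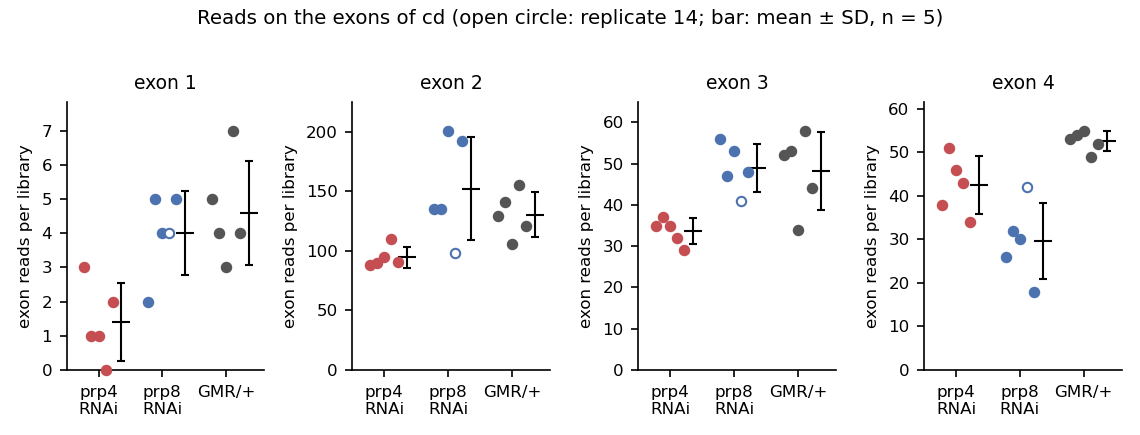
Reads on the 4 exons of *cd* in each library of *GMR > prp4* RNAi, *GMR > prp8* RNAi and *GMR/+*, with the mean ± SD of 5 libraries. On exon 4 the *GMR > prp8* RNAi libraries (18 to 42 reads) lie below the controls (49 to 55 reads), while on exon 2 they reach 201 reads and the open circle, replicate 14, has 98.

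*scarlet* (*st*, FBgn0003515, 3L from 16497651 to 16500460) encodes the ABC transporter subunit that pairs with that of *w* for ommochrome precursors. It had 105, 123, 93, 110 and 108 reads in *GMR > prp4* RNAi and 54, 44, 65, 114 and 72 reads in *GMR > prp8* RNAi, against 64, 56, 50, 75 and 54 reads in the controls. The *GMR > prp4* RNAi libraries all lay above the controls, and the 114 reads of replicate 14 were the only *GMR > prp8* RNAi value above the highest control. *st* had a log2 fold change of 0.86 in *GMR > prp4* RNAi (edgeR, standard error 0.12, adjusted p = 0.000396). For *GMR > prp8* RNAi it was 0.21 (standard error 0.21, adjusted p = 0.638), and -0.03 without replicate 14 (adjusted p = 0.948). Between the knockdowns it was 0.65 (adjusted p = 0.0627), and 0.89 without replicate 14 (adjusted p = 0.000522).

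The *st* gene lies within CG43373, a gene on the other strand. The deposited gene counts are those that the authors list as sense reads, apart from antisense reads, while for exon and junction counts the use of strand is not given in the sources used here. CG43373 had log2 fold changes of 0.0014 in *GMR > prp4* RNAi and 0.03 in *GMR > prp8* RNAi, neither past the test. Reads across the 6 introns of *st* together were 44, 40, 19, 37 and 33 in *GMR > prp4* RNAi and 17, 7, 16, 44 and 26 in *GMR > prp8* RNAi, against 17, 27, 16, 26 and 19 in the controls. Of these few reads, 4 of the 5 *GMR > prp4* RNAi libraries and replicate 14 lay above all controls.

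*brown* (*bw*, FBgn0000241, 2R from 23527805 to 23538499) encodes the ABC transporter subunit that pairs with that of *w* for pteridine precursors. It had 2669, 3017, 3318, 2936 and 3197 reads in *GMR > prp4* RNAi and 2300, 2324, 2438, 2964 and 2745 reads in *GMR > prp8* RNAi, against 2733, 2871, 3027, 3045 and 2808 reads in the controls. In *GMR > prp4* RNAi the groups overlapped, with a log2 fold change of 0.08 (edgeR, standard error 0.064, adjusted p = 0.483). Of the *GMR > prp8* RNAi libraries 3 of 5 lay below all controls in reads. After normalization replicate 15 (232 CPM) also lay just below the lowest control (233 CPM). The log2 fold change in *GMR > prp8* RNAi was -0.19 (edgeR, standard error 0.068, adjusted p = 0.12), and -0.24 without replicate 14 (adjusted p = 0.0333). Between the knockdowns it was 0.27 (adjusted p = 0.0563), and 0.32 without replicate 14 (adjusted p = 0.00998).

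*w*, whose product is the partner of both, is also the marker gene carried by transgenes. Its reads ranged from 5524 to 6464 in *GMR > prp4* RNAi and from 4081 to 6629 in *GMR > prp8* RNAi, against 454 to 509 in the controls. The highest *GMR > prp8* RNAi value belongs to replicate 14, and the other 4 libraries had at most 4613 reads.

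While the gene count of *bw* did not pass the test in *GMR > prp4* RNAi, the use of one of its junctions did. *bw* has 9 exons in both annotated transcripts, and all 8 of its introns lie between coding exons. Intron 5 (2R from 23529272 to 23529338, 67 bases) had 82, 89, 80, 85 and 95 junction reads in *GMR > prp4* RNAi and 124, 135, 112, 66 and 125 in *GMR > prp8* RNAi, against 141, 128, 163, 138 and 123 in the controls. All 5 *GMR > prp4* RNAi libraries lay below all 5 controls, and replicate 14, with 66 reads, was below them all while the other 4 *GMR > prp8* RNAi libraries overlapped the controls.

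*bw* was the 1 gene called of the 6 members that could be tested for junction use in *GMR > prp4* RNAi (adjusted p = 0.000768 from edgeR), against 0.562% of 4445 genes. The junction change of *bw* was known when the members were chosen, so nothing is read from 1 of 6 beside that share. Intron 5 had a log2 change in use of -0.73 (adjusted p = 0.000274 over junctions). When single replicates were left out, the gene's adjusted p was between 0.00187 and 0.0214. For *GMR > prp8* RNAi 0 of 6 members were called, against 0.291% of 4464 genes, 1 member (*cd*) had an unadjusted p under 0.05, and limma called 0. The difference between the knockdowns, added after the data had been seen, called 0 of 5 members (background 0.268%), with 1 (*bw*) at an unadjusted p under 0.05. Without replicate 14 *bw* was called (1 of 5, background 0.614%), with a log2 change of intron 5 in *GMR > prp4* RNAi over *GMR > prp8* RNAi of -0.74 (gene adjusted p = 0.00161).

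The reads of intron 5 divided by those of the other 7 introns of *bw* were 0.105, 0.102, 0.0884, 0.0994 and 0.108 in *GMR > prp4* RNAi and 0.200, 0.210, 0.161, 0.08 and 0.157 in *GMR > prp8* RNAi, against 0.186, 0.174, 0.196, 0.165 and 0.166 in the controls. The means were 0.1005 ± 0.00752 in *GMR > prp4* RNAi and 0.162 ± 0.0512 in *GMR > prp8* RNAi, against 0.177 ± 0.0134 in the controls (SD, n = 5 each). Relative to the controls this is 0.567 in *GMR > prp4* RNAi and 0.912 in *GMR > prp8* RNAi, or 1.03 without replicate 14. The intron was picked from the same reads, so the ratio is a description with no test of its own.

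Set beside the other introns, intron 5 lay within their range in *GMR > prp4* RNAi and mostly above it in the controls. It had 80 to 95 reads in *GMR > prp4* RNAi, where introns 1 to 4, 6 and 7 had 71 to 137. Without replicate 14, *GMR > prp8* RNAi had 112 to 135 reads in intron 5 and 46 to 100 in those 6. The controls had 123 to 163 reads in intron 5 and 63 to 130 in those 6. Intron 8, the last, had more reads than any other in all 3 genotypes, with 264 to 322 in *GMR > prp4* RNAi, 207 to 282 in *GMR > prp8* RNAi and 240 to 299 in the controls. The counted region of *bw* overlaps at that end with *mi*, a gene on the other strand, whose log2 fold change was -0.07 in *GMR > prp4* RNAi and -0.06 in *GMR > prp8* RNAi, neither past the test.

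**Figure D4:**
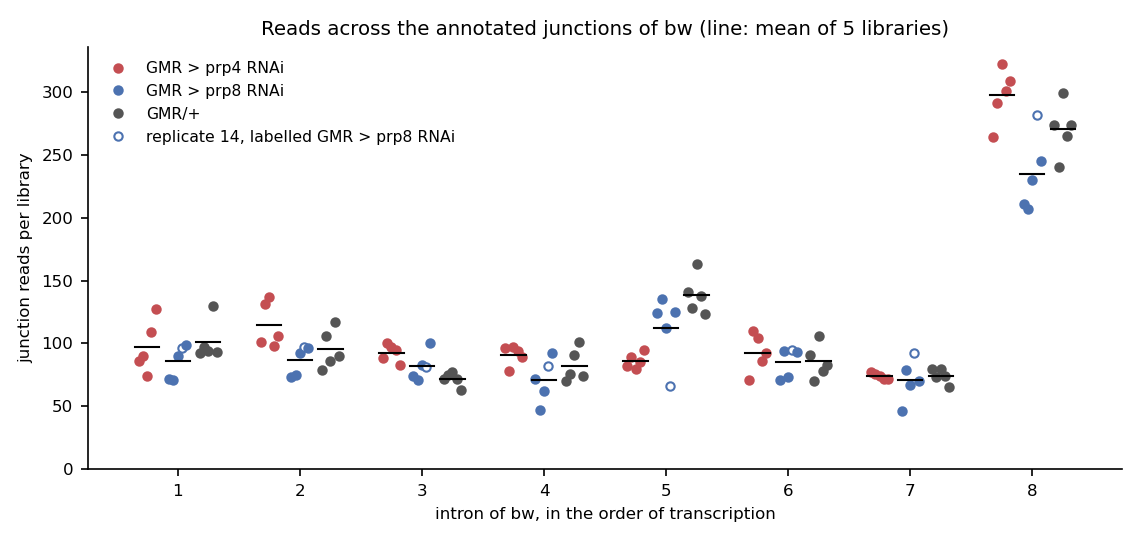
Reads across the 8 annotated introns of *bw* in each library of *GMR > prp4* RNAi, *GMR > prp8* RNAi and *GMR/+*, with lines at the means. At intron 5 the *GMR > prp4* RNAi libraries (80 to 95 reads) and replicate 14 (open circle, 66 reads) lie below all controls (123 to 163 reads), which does not happen at any other intron.

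Reads that cross intron 5 also lie on exons 5 and 6, so the counts of these exons are not independent of the junction count. Exon 6, which follows intron 5 and has 106 coding bases, changed in the same direction. It had 118, 129, 129, 130 and 133 reads in *GMR > prp4* RNAi and 154, 183, 156, 114 and 181 reads in *GMR > prp8* RNAi, against 185, 174, 213, 174 and 157 reads in the controls. Its log2 change in use was -0.57 in *GMR > prp4* RNAi (edgeR, adjusted p = 0.0013 over exons). Exon 5, before the intron, had -0.30 there (edgeR, unadjusted p = 0.0073, adjusted p = 0.732). The junction that leaves exon 6 had 71, 110, 104, 86 and 92 reads in *GMR > prp4* RNAi, 71, 94, 73, 95 and 93 in *GMR > prp8* RNAi and 91, 70, 106, 78 and 83 in the controls, with the groups overlapping. Junctions that share one end with intron 5 and differ at the other held 2 reads in *GMR > prp4* RNAi, 9 in *GMR > prp8* RNAi and 12 in the controls, summed over the 5 libraries of each.

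*bw* was also the 1 member called of 8 for exon use in *GMR > prp4* RNAi (adjusted p = 0.00334 from edgeR), against 0.962% of 7484 genes. Its junction change was known when the members were chosen, so nothing is read from 1 of 8 beside that share. Without replicate 3 the adjusted p of *bw* was 0.0654 and without replicate 8 it was 0.0502, and 0 members were then called. Among *GMR > prp8* RNAi comparisons of exon use 0 of 8 were called (background 0.601%), with 1 (*cd*) at an unadjusted p under 0.05 and 0 by limma. Without replicate 14, *cd* was called, 1 of 8, against 0.617%. Between the knockdowns 0 of 8 were called (background 0.253%), with 2 (*bw* and *cd*) at an unadjusted p under 0.05, and without replicate 14 those 2 genes were called (background 0.951%).

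Intron 3 of *bw* spans 7522 bases, from 23529627 to 23537148, nearly all of it an annotated copy of the transposable element *412*. It had 88, 100, 97, 95 and 83 junction reads in *GMR > prp4* RNAi and 74, 71, 83, 81 and 100 in *GMR > prp8* RNAi, against 72, 75, 77, 72 and 63 in the controls. The *GMR > prp4* RNAi libraries lay above the controls, but the log2 change in use of 0.33 did not pass the test, nor did that of 0.34 in *GMR > prp8* RNAi. Reads across it show that all 15 libraries held *bw* RNA with exons 3 and 4 joined. Flies without this copy of the element would give the same reads, so splicing cannot be told apart from its absence.

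*carnation* (*car*, FBgn0000257, X from 19566019 to 19569401) encodes Vps33A, which acts in the delivery of proteins to lysosomes and pigment granules. It had 216, 184, 199, 179 and 196 reads in *GMR > prp4* RNAi and 199, 194, 233, 217 and 177 reads in *GMR > prp8* RNAi, against 169, 210, 184, 183 and 187 reads in the controls. The 3 groups overlapped, with log2 fold changes of 0.08 in *GMR > prp4* RNAi (standard error 0.072, adjusted p = 0.557 from edgeR) and 0.12 in *GMR > prp8* RNAi (standard error 0.082, adjusted p = 0.462).

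Other genes of the same pathways were read from a list of 36, of which 31 were matched and tested. In *GMR > prp4* RNAi 4 fell and 1 rose, against 9.63% called over all genes, and in *GMR > prp8* RNAi 2 fell and 0 rose, against 4.73%. A count of 2 of 31 is near that share, and nothing is read from it about the list. Of the 10 other pteridine genes tested, 3 fell in *GMR > prp4* RNAi and 2 in *GMR > prp8* RNAi, with median log2 fold changes of -0.07 and -0.08. *Pu*, the gene of GTP cyclohydrolase, which opens the route, fell by 0.49 on the log2 scale in *GMR > prp4* RNAi (adjusted p = 0.000289 from edgeR) and by 0.41 in *GMR > prp8* RNAi (adjusted p = 0.00888). *pr*, the gene of the next enzyme, 6-pyruvoyl-tetrahydropterin synthase, fell by 0.23 in *GMR > prp4* RNAi (adjusted p = 0.0191) and by 0.46 in *GMR > prp8* RNAi (adjusted p = 0.00021). It was higher in *GMR > prp4* RNAi than in *GMR > prp8* RNAi by 0.24 (adjusted p = 0.0272). *Sptr*, the gene of sepiapterin reductase, fell by 0.25 in *GMR > prp4* RNAi (adjusted p = 0.0422).

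Of the 2 other ommochrome genes, *KFase*, the gene of kynurenine formamidase, fell by 0.33 in *GMR > prp4* RNAi (adjusted p = 0.0181 from edgeR). Among 19 other genes of pigment granules, only *g*, which encodes a subunit of the AP-3 adaptor, passed the test in *GMR > prp4* RNAi, with a log2 fold change of 0.25 (adjusted p = 0.0149). It was also higher there than in *GMR > prp8* RNAi by 0.24 (adjusted p = 0.0443). *Blos4*, which encodes a subunit of BLOC-1, had a log2 fold change of 0.75 in *GMR > prp8* RNAi (adjusted p = 0.0503) and rose by 0.83 without replicate 14 (adjusted p = 0.0331). Without that library *ltd*, the gene of a Rab GTPase of pigment granules, fell by 0.22 (adjusted p = 0.0181). The summed CPM of the 10 other pteridine genes was 442 to 495 in *GMR > prp4* RNAi and 441 to 474 in *GMR > prp8* RNAi, below the 522 to 539 of the controls in every library. That sum includes *Pu*, *pr* and *Sptr*, while 7 of the 10 genes in *GMR > prp4* RNAi and 8 in *GMR > prp8* RNAi did not pass the test. How often lists of this size lie apart was not tested.

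**Figure D5:**
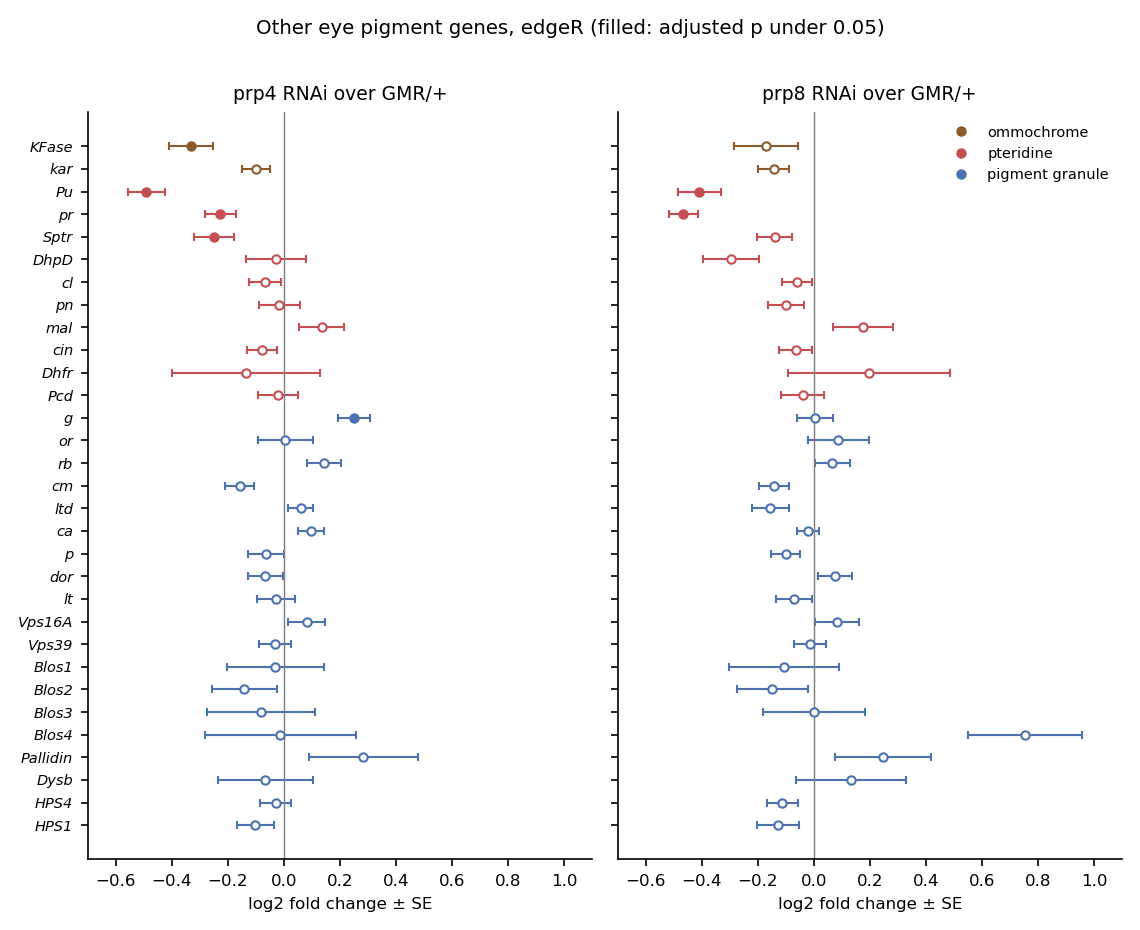
Log2 fold changes with standard errors (edgeR) of 31 other genes of ommochrome synthesis (brown), pteridine synthesis (red) and pigment granules (blue), in *GMR > prp4* RNAi and in *GMR > prp8* RNAi, each over *GMR/+*; filled points have an adjusted p under 0.05. *Pu* lies at -0.49 and -0.41, *pr* at -0.23 and -0.46.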

How the data were processed

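Heads of *GMR > prp4* RNAi, *GMR > prp8* RNAi and *GMR/+* flies were sequenced on poly(A) libraries made with the SENSE kit. The authors aligned reads to BDGP6 with STAR 2.5.3a, removed ribosomal and mitochondrial reads and resampled aligned reads to a common depth with PORT 0.8.2a-beta. They deposited counts of reads on genes, exons and junctions (Ensembl release 88), without scaling. Each library held 11753627 to 11979892 gene counts, 28597628 exon counts and 3129163 to 3244363 junction counts.

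Groups came from the labels, and 0 columns were left out. Members and lists were chosen with earlier results of these data known. The text names all members, *w*, other pathway genes called (at most 8 per comparison) and marker genes a result turns on. *Cyp6d4*, *GstO2*, *GstO3*, *mi* and CG43373 were added as neighbours, and *ltd* and *Blos4*, called without replicate 14, after their values were seen.

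In R 4.3.3, edgeR 4.0.16 (filterByExpr, TMM, quasi-likelihood test, Benjamini-Hochberg over all genes, threshold 0.05) compared 5 libraries with 5, and the knockdowns with each other in a fit of all 15. Junction and exon use was tested with diffSpliceDGE (Simes p per gene) for features reaching 10 counts in 5 libraries or more, in genes having 2 or more of them. Printed reads are the counts as deposited; CPM and fold changes use TMM. Alternatives were limma-voom and diffSplice (limma 3.58.1), DESeq2 1.42.0, library size only, other filters and each library left out. The edgeR tests of genes, junction use and exon use were tried on simulated counts, with changes planted in well-read features only. The limma and DESeq2 alternatives were not. Locations are from Ensembl release 115, of which 13034 of 13259 genes matched by ID, and file regions reach 302 bases beyond most genes. Python 3.11.15, numpy 2.4.6, pandas 2.3.3 and matplotlib 3.10.9 made tables and figures.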

Additional observations from a re-analysis of the deposited data

Results flagged for a closer look

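Among the 8 tested genes, *w*, and the *bw* junction and *cd* last exon ratios, 33 sets of 5 libraries were examined for an extreme value standing off from its neighbours by more than 0.71 of the spread of the set. In 2 of the 33 one was found, and chance gives about 1 set in 20. The *Hn* count of control replicate 1 lay above the other 4 controls (gap 0.884 of the range). The *w* count of *GMR > prp8* RNAi replicate 14 lay above the other 4 libraries (gap 0.784 of the range).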

How the results depend on the processing

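No paired analysis was possible because each library carries a replicate number of its own, from 1 to 15. Of 392 values of the log2 fold changes of the 8 tested genes under other settings, 372 kept their direction and their side of the threshold, 12 passed it only there, 2 lost it (*cd* in *GMR > prp4* RNAi with all libraries in one fit, *Hn* between the knockdowns without replicate 11) and 6 changed sign, none of them past the threshold. The sign changes came with single replicates left out, which gave log2 fold changes of -0.067 to 0.040 for *v* in *GMR > prp4* RNAi (above 0 without replicate 1 or 6), -0.028 to 0.33 for *st* (below 0 without replicate 14) and -0.010 to 0.15 for *cd* (below 0 without replicate 13 or 15) in *GMR > prp8* RNAi, and -0.083 to 0.014 for *car* between the knockdowns (above 0 without replicate 13).

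With each replicate left out, the members called by gene counts numbered 4 in every case in *GMR > prp4* RNAi, 1 to 2 in *GMR > prp8* RNAi and 1 to 5 between the knockdowns, where DESeq2 called 5 against 2 with TMM in edgeR. Those called for junction use numbered 1 in every case in *GMR > prp4* RNAi, and for exon use 0 to 1 in each knockdown. Between the knockdowns, without replicate 14, junction use called 1 against 0 and exon use 2 against 0. The cause of these changes was not tested. The *bw* junction ratio in *GMR > prp4* RNAi was 0.598 of the controls with the gene count in place of the other junctions, against 0.567. Junctions that share an end with the intron were planned as another base and not run, since 8 of 15 libraries had 0 such reads. With library size only, the genes higher and lower numbered 365 and 512 in *GMR > prp4* RNAi, against 448 and 420 with TMM in edgeR, and 283 and 192 in *GMR > prp8* RNAi, against 213 and 214. Between the knockdowns they were 102 and 136, against 125 and 90. With each replicate left out, calls over all genes ranged from 563 to 916, from 214 to 545 and from 75 to 579 in these 3 comparisons.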
